A study of Mus musculus with 14 samples.

Results

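Stromal cells (Str) and luminal progenitor cells (LP) of the mouse mammary gland were compared across 287 microRNAs (miRNAs) of array plate A. The members were the miRNA probes of plate A with a normalized value of 2 or more in at least 3 of the 7 samples of the comparison, and 287 of the 375 miRNA probes of plate A met that rule, out of 584 miRNA probes on both plates. Plate B, where 2 of the control RNAs gave no signal in any LP sample, was left out. At the threshold, miR-98 was just inside, with 3 samples at 2.30 or more, and miR-217 just outside, with 3 samples at 1.82 or more. Of the 88 plate A probes left out, 59 had no signal in any of the 7 samples.

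Cells of every group were sorted fresh from the mammary glands of pooled adult FVB/N mice that had received no treatment. LP were sorted as CD29lo CD24+ CD61+ cells, and each of the 3 LP samples came from a mouse pool of its own. Stroma was sorted as CD29- CD24- cells, and the 4 stromal samples all came from 1 further mouse pool. Mature luminal cells (ML, CD29lo CD24+ CD61-) and MaSC/basal cells (CD29hi CD24+), taken from the same 3 pools as LP, entered the fit and were used to place the LP values. The labels do not say whether the 4 stromal samples were separate sorts or repeats of 1 RNA, so their spread may be technical. P-values measure the spread within all 4 groups of the fit, between mouse pools in LP, ML and MaSC/basal cells and between samples of 1 pool in stroma, and mouse pool and population cannot be told apart for stroma. In bulk samples of sorted cells, fewer cells of a type and less of an RNA per cell cannot be told apart.

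A miRNA is a short RNA that guides Argonaute proteins to messenger RNAs, and bases 2 to 8 from its 5′ end, the seed, choose most of the targets. Many miRNAs lie in clusters that are transcribed as 1 precursor, so that neighbours are often made in the same cells. Epithelial cells are known for the miR-200 family, which holds down the ZEB transcription factors, and for the miR-183 cluster. Mesenchymal cells are known for miR-199a and miR-214, while the imprinted Dlk1-Dio3 region and the Hox clusters carry further miRNAs linked to mesenchyme and body position. Luminal progenitors are the proliferative precursors of the milk-secreting and ductal luminal cells.

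The sequences below are the mature miRNAs on which the comparison turned, from RefSeq with the GRCm38.p6 build, written 5′ to 3′ with the seed in capitals. RefSeq sequences were matched to 194 of the 287 members. The miR-200 family is encoded at chr4:156053916-156055706 (miR-200b, miR-200a and miR-429) and chr6:124717917-124718346 (miR-200c and miR-141), both on the minus strand, and holds a pair of seeds that differ in a single base. The miR-183 cluster lies at chr6:30165962-30169732 on the minus strand.
miR-200b: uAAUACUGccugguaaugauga
miR-200c: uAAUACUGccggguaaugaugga
miR-429: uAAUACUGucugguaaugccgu
miR-200a: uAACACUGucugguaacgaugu
miR-141: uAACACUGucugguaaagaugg
miR-183: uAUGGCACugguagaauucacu
miR-96: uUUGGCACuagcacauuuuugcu
miR-182: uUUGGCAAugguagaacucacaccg

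On the stromal side the miRNAs shown are the miR-199a arms and miR-214, of which Mir199a-2 and Mir214 lie at chr1:162217844-162223459 on the plus strand, inside the Dnm3os transcript antisense to Dnm3. The Dlk1-Dio3 miRNAs shown span chr12:109590459-109743225 on the plus strand, a region expressed from the maternal chromosome. The 5p and 3p arms of miR-409 are cut from 1 hairpin.
miR-199a-3p: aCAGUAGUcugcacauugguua
miR-199a-5p: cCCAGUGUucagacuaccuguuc
miR-214: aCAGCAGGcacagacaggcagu
miR-431: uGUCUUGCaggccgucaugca
miR-127: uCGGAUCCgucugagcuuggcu
miR-379: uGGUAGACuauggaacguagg
miR-411: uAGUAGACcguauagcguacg
miR-382: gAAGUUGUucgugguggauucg
miR-409-5p: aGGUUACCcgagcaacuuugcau
miR-409-3p: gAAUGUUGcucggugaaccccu

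Another set shows miRNAs of the miR-290 cluster at chr7:3218968-3220837 on the plus strand, beside miR-17, whose seed holds the same letters moved by 1 base. The last set shows families whose members share a seed and yet differed between the cell types.
miR-291a-3p: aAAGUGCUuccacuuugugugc
miR-294: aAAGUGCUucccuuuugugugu
miR-295: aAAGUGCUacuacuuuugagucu
miR-293: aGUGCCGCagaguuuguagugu
miR-17: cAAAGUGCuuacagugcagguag
miR-125b-5p: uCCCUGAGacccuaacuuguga
miR-125a-5p: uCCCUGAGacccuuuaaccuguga
miR-351: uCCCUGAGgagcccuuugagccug
miR-99a: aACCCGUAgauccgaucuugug
miR-100: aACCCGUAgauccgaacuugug
miR-99b: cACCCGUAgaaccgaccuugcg
miR-10b: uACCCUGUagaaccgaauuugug
miR-10a: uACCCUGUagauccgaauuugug
miR-146a: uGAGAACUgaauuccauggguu
miR-146b: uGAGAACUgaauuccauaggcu

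The assay was a stem-loop reverse transcription followed by real-time PCR, read as a cycle threshold (Ct), with 40 for a reaction that gave no signal. Levels below are the deposited log2 values (a constant minus Ct, then cyclic loess), in which 1 unit is 1 PCR cycle and a higher value is more RNA. Differences are stroma minus LP on that scale, from limma with Benjamini-Hochberg adjustment over all 459 probes tested, and a probe is called at an adjusted p under 0.05. A level of 1 assay cannot be set against the level of another, because assays differ in efficiency.

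Stroma and LP differed at 223 of the 287 miRNAs, 123 of them higher and 100 lower in stroma, which left 64 not called. Of all probes tested on both plates 80.0% were called, 49.2% higher and 30.7% lower in stroma, so that the share of plate A members called (77.7%) was close to that of the whole table. The differences were large: 66 of the higher and 31 of the lower miRNAs differed by more than 4 log2 units, or 16-fold. By comparison the median SD between samples, over the 234 members detected in all 7 samples, was 0.23 in stroma and 0.29 in LP. Pairs of stromal samples differed by a median of 0.24 to 0.31 log2 units, and pairs of LP samples, from different pools, by 0.23 to 0.40. The values of stroma and LP did not overlap for 234 members, or 81.5%, and for 82.8% of all probes tested. Among the 234 miRNAs detected in every sample the calls were nearly even, with 87 higher and 93 lower in stroma.

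How the samples are scaled moved the split. The median difference over the members was -0.05 with the deposited normalization, 2.03 when U6 RNA alone was the reference, 1.06 with the mean of 4 plate A controls, 1.73 with no normalization, 0.19 with cyclic loess on plate A alone and -0.29 after median centring. Calls were 55.2% higher in stroma with the deposited values, 84.1% (185 higher, 35 lower) against U6, 71.0% (132 and 54) against the 4 controls, 82.7% (163 and 34) with no normalization and 46.5% (101 and 116) after median centring. Under all 6 scalings 98 miRNAs were called higher and 34 lower in stroma, and of these 83 and 33 were also called when the stromal samples were averaged to 1. The 4 controls were U6, U87, snoRNA135 and snoRNA202. Y1, which differed most between the groups (-6.35 cycles), was left out, and a reference that includes it was not tried. Values below are for the deposited normalization unless another is named. Some changes of direction or call with the scaling are given beside the miRNA and others in the closing section, and not all are given.

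The control RNAs of plate A did not move together. U6, the spliceosomal RNA, came up at a Ct of 12.7 ± 0.472 (SD, n = 4) in stroma and 12.4 ± 0.524 (n = 3) in LP, and U87 at 21.8 ± 0.738 and 21.6 ± 0.349. The 2 groups overlapped for both. Y1 RNA came up at a Ct of 21.4 ± 0.464 in stroma and 27.7 ± 0.424 in LP, a difference of -6.35 cycles, and snoRNA135 and snoRNA202 came up earlier in every stromal sample than in any LP sample, with mean differences of -1.77 and -1.42 cycles. Between 287 and 292 plate A miRNA assays were detected per stromal sample and between 256 and 265 per LP sample. Exact permutation tests (two-sided) gave p = 0.0571 for Y1, both snoRNAs and the number of detected assays (adjusted p = 0.0857 over 6 measures), p = 0.457 for U6 and p = 0.743 for U87. With 4 samples against 3, 0.0571 is the smallest p such a test can give. On plate B, U87 and snoRNA135 had no signal in any LP sample, and snoRNA202 came up at a mean Ct of 33.1 in LP against 13.7 in stroma. U6 (11.6 in LP, 12.4 in stroma) and Y1 (25.6 and 24.4) gave a signal in every LP and stromal sample of that plate.

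**Figure D1:**
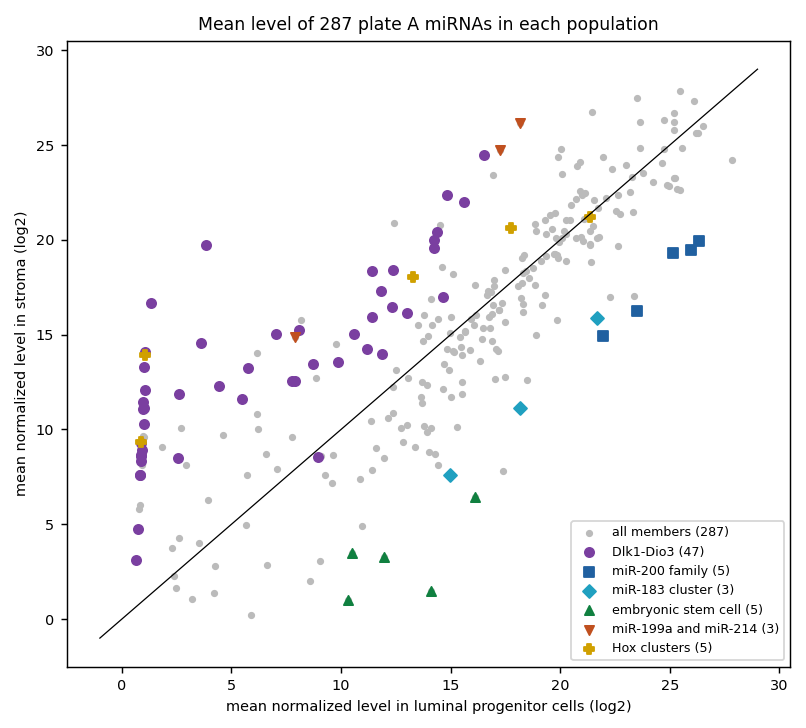
Mean normalized level (log2) of each of the 287 plate A miRNAs in luminal progenitor cells (x axis, 3 samples) and stroma (y axis, 4 samples), with 6 miRNA groups in colour and the line of equal level. The miR-200, miR-183 and embryonic stem cell groups lie below the line, Dlk1-Dio3 and miR-199a/214 lie above it except for miR-666-5p, and the column of points near a level of 1 in LP is of miRNAs with little or no signal there.

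The miR-200 family was lower in stroma for 5 of 5 members, with a median difference of -6.48. miR-200c was measured at 26.29, 26.19 and 26.54 in LP 1 to 3 and at 20.14, 19.28, 20.19 and 20.13 in Str 1 to 4, a difference of -6.41 (SE 0.25, adjusted p = 4.7e-10). miR-200b stood at 25.95, 26.22 and 25.72 in LP and 19.40, 18.80, 19.87 and 19.84 in stroma (-6.48, SE 0.33). The second seed of the family followed: miR-141 was at 22.33, 22.05 and 21.42 in LP against 14.84, 14.31, 15.15 and 15.39 in stroma (-7.01, SE 0.36). miR-429 (-7.27, SE 0.39) and miR-200a (-5.85, SE 0.29) completed the family, so the members of both loci and both seeds were lower by similar amounts. No stromal value of any member reached an LP value. The family median stayed between -7.95 and -5.63 under the 6 scalings, with 5 of 5 members called lower under each.

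The RNA was not absent from stroma. The 5 members were detected in all 4 stromal samples, at a mean Ct of 20.3 for miR-200c and 24.7 for miR-141, and their summed level lay between 20.62 and 21.56 in stroma and between 27.56 and 27.66 in LP. The part that epithelial cells in the CD24- gate may have in the stromal values was not tested.

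The miR-183 cluster, expressed in many epithelia and sensory cells, was lower in stroma for 3 of 3 members. miR-183 was measured at 18.27, 18.23 and 18.05 in LP and at 11.45, 10.57, 11.08 and 11.37 in stroma, a difference of -7.07 (SE 0.20, adjusted p = 2.8e-11). miR-96 differed by -7.40 (SE 0.35) and miR-182 by -5.79 (SE 0.28), with no overlap between the groups. The direction held under every scaling, but the size of the miR-96 difference did not: it was -2.99 against U6 and -5.77 with loess on plate A alone. The cluster median ranged from -7.07 to -4.08.

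Of the 4 members linked to luminal cells, 3 were called lower in stroma and none higher (median -3.25), and against U6 2 were lower and 1 higher (median -1.37). miR-31, which was not in that list, was at 23.46, 23.29 and 23.32 in LP and 16.65, 16.25, 17.61 and 17.55 in stroma (-6.34, SE 0.36). miR-375, one of the 4 and known from endocrine and luminal cells, differed by -5.84 (SE 0.32; -2.98 against U6). Among miRNAs detected in all 7 samples and lower in stroma, miR-193, also of the 4, had the second largest difference, -9.59 (SE 0.86), with LP values of 18.45, 18.17 and 15.52 that were themselves spread and stromal values between 7.43 and 8.17 (-5.65 against U6). miR-210, induced by HIF-1 in low oxygen, was lower in stroma by a difference of -5.28 (SE 0.16), and miR-146b by -3.62 (SE 0.24). These 5 were called lower under the 6 scalings. The other two luminal members moved less, with miR-365 at -0.66 (0.23 and not called against U6) and miR-148a at 0.10, not called.

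Of the stratified epithelium miRNAs, miR-205, miR-203 and miR-184 were called lower in stroma (3 of 3, median -1.62). miR-205, which marks basal epithelium, stood at 18.78, 19.32 and 19.38 in LP, 16.49, 15.36, 17.43 and 17.05 in stroma and 23.4 on average in MaSC/basal cells. miR-203 was -1.62 (SE 0.26) and miR-184 -1.60 (SE 0.40). Against U6 or with no normalization none of the 3 was called, and the median against U6 was -0.28.

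**Figure D2:**
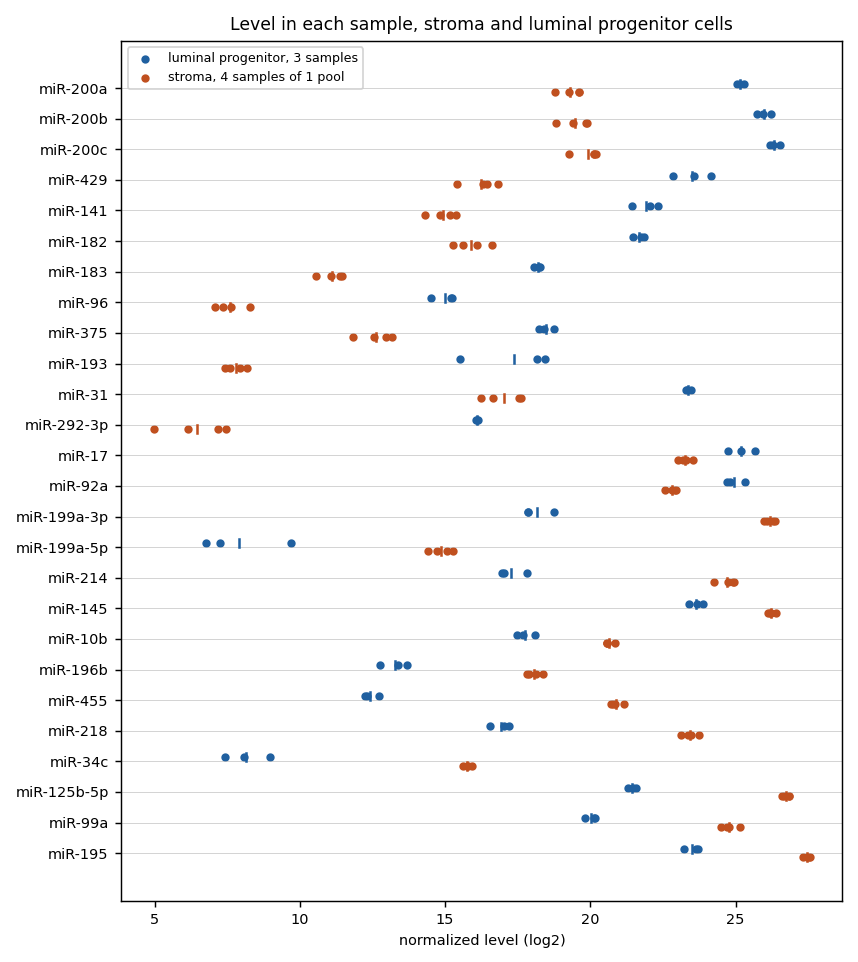
Normalized level (log2, x axis) of 26 miRNAs in each LP sample (blue, 3 samples) and each stromal sample (orange, 4 samples of 1 pool), with a bar at each group mean. Blue and orange points do not overlap in any row, with LP higher in the rows from miR-200a to miR-92a and stroma higher from miR-199a-3p to miR-195.

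miRNAs best known from embryonic stem cells were detected in LP and were lower in stroma. Of 12 plate A probes for the miR-290 and miR-302 clusters, 5 were members, all of the miR-290 cluster, and 5 of 5 were called lower in stroma (median -9.33, and -9.33 to -6.70 across the scalings). At least miR-295 and miR-291a-3p became members through their LP values, so this count and median are descriptions. miR-292-3p was tight in LP at 16.08, 16.12 and 16.10 (mean Ct 25.8) and low in stroma at 4.98, 7.19, 7.47 and 6.16, a difference of -9.65 (SE 0.67, adjusted p = 1.0e-07), or -5.92 against U6. miR-295 was at 14.27, 13.96 and 14.15 in LP, and in stroma it had no signal in 2 samples and 4.97 and 1.73 in the others (-12.63, SE 1.11).

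miR-294 and miR-291a-3p, which share the seed of miR-295, differed by -8.68 (SE 1.25) and -9.33 (SE 1.31), and miR-293, with a seed of its own, by -7.02 (SE 1.95). Each was detected in all 3 LP samples, and in stroma miR-294 and miR-293 gave a signal in 3 of 4 samples and miR-291a-3p in 1 of 4, so the stromal means rest partly on reactions set to the limit. Each was also detected in all 3 ML samples, as were miR-292-3p and miR-295. In MaSC/basal cells miR-292-3p and miR-295 gave a signal in all 3 samples, miR-293 in 2, and miR-294 and miR-291a-3p in 1. In ML the mean level of miR-292-3p was 12.6 and in MaSC/basal cells 9.5. Of the cluster, miR-292-3p alone was called higher in LP than in both ML and MaSC/basal cells. Of the 7 probes that were not members, miR-302b was detected in 2 LP samples and none in stroma, and miR-302d in 3 stromal samples and no LP sample.

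The cluster of miR-17 to miR-92a and its paralogs, which promote proliferation and are often called oncomirs, were lower in stroma for 8 of 11 members, with a median of -1.93. miR-17 was at 25.17, 24.72 and 25.68 in LP and 23.29, 23.21, 23.54 and 23.02 in stroma (-1.93, SE 0.34, adjusted p = 0.00028). miR-20b of the X-linked paralog differed by -2.93 (SE 0.38), miR-19a by -2.57 (SE 0.26) and miR-92a by -2.12 (SE 0.28). All 6 members with the seed of miR-17 were called lower. miR-25 of the miR-106b cluster has the seed of miR-92a but was at 20.23, 20.14 and 20.40 in LP and 20.34, 20.11, 20.47 and 20.32 in stroma, a difference of 0.05 (SE 0.21) that was not called. Under the 6 scalings between 6 and 10 of the 11 were lower, the median lay between -3.43 and -1.11, and 1 member was called higher against U6.

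miR-199a and miR-214, the mesenchymal miRNAs, were higher in stroma for 3 of 3 members (median 7.44). miR-199a-3p was at 17.85, 17.87 and 18.75 in LP and at 26.36, 26.28, 25.99 and 26.09 in stroma, a difference of 8.02 (SE 0.27, adjusted p = 1.5e-10). miR-214, from the same transcript, was at 16.97, 17.02 and 17.84 against 24.92, 24.95, 24.25 and 24.75 (7.44, SE 0.26). The other arm, miR-199a-5p, differed by 6.96 (SE 0.85), with LP values of 9.69, 6.76 and 7.25 (11.01 against U6). The 3 were called higher under each of the 6 scalings, with a median from 6.82 to 9.14. The gap between 2 assays in raw Ct is not moved by any scaling that shifts a whole sample. The gap between miR-199a-3p and miR-200c (Ct of miR-200c minus Ct of miR-199a-3p) was -8.41 cycles in LP and 6.37 cycles in stroma, a change of 14.8 cycles.

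miRNAs of the Hox clusters, which lie between genes that set position along the body, were higher in stroma for 4 of 5 members (median 4.77, and 4.77 to 7.48 across the scalings). miR-615-3p, from an intron of Hoxc5, had no signal in any LP sample and stood at 14.38, 14.22, 13.21 and 13.97 in stroma, at least 12.89 log2 units higher. Its 5p arm was also without signal in LP and at 8.97 to 10.11 in stroma (at least 8.46 higher). Both miR-615 arms became members through their stromal values, so the Hox count and median are descriptions. miR-196b was at 13.68, 13.39 and 12.77 in LP and 17.80, 17.89, 18.38 and 18.13 in stroma (4.77, SE 0.34), and miR-10b, beside Hoxd4, differed by 2.90 (SE 0.23). miR-10a, beside Hoxb4, overlapped between the groups at 21.23, 21.51 and 21.33 in LP and 21.17, 21.06, 21.19 and 21.49 in stroma (-0.13, SE 0.27, adjusted p = 0.67), and it was called lower after median centring and higher against U6. A miRNA without signal was set to a Ct of 40, so its fold is a bound on the normalized scale. In all, 19 members had no signal in LP and a signal in all 4 stromal samples, and no member had the reverse. These 19 became members through their stromal values, so the count is a description.

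Of 3 matrix-linked members, 2 were called higher in stroma (median 6.51). miR-455, from an intron of the collagen gene Col27a1, was at 12.24, 12.31 and 12.71 in LP and 20.87, 21.17, 20.71 and 20.78 in stroma (8.46, SE 0.22, adjusted p = 1.2e-11). miR-218, from introns of Slit2 and Slit3, was at 17.03, 16.53 and 17.21 against 23.75, 23.48, 23.36 and 23.14 (6.51, SE 0.20). miR-140, known from cartilage, was not called at -0.09 (SE 0.16, adjusted p = 0.63), with a 95% interval from -0.43 to 0.26 on the deposited values. Against U6 miR-140 was called higher (0.99), and after median centring it was called lower (-1.33). miR-21, abundant in fibroblasts and tumours, differed by 3.14 (SE 0.37), and miR-152 by 2.38 (SE 0.24).

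miR-143 and miR-145, which mark smooth muscle and myoepithelial cells, were both higher in stroma than in LP. miR-145 was at 23.41, 23.68 and 23.87 in LP and 26.20, 26.21, 26.11 and 26.40 in stroma (2.58, SE 0.26), while MaSC/basal cells had a mean of 28.6. miR-143 differed by 1.33 (SE 0.24). With the fourth MaSC/basal sample kept in the fit neither passed, and after median centring miR-143 did not (0.12).

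**Figure D3:**
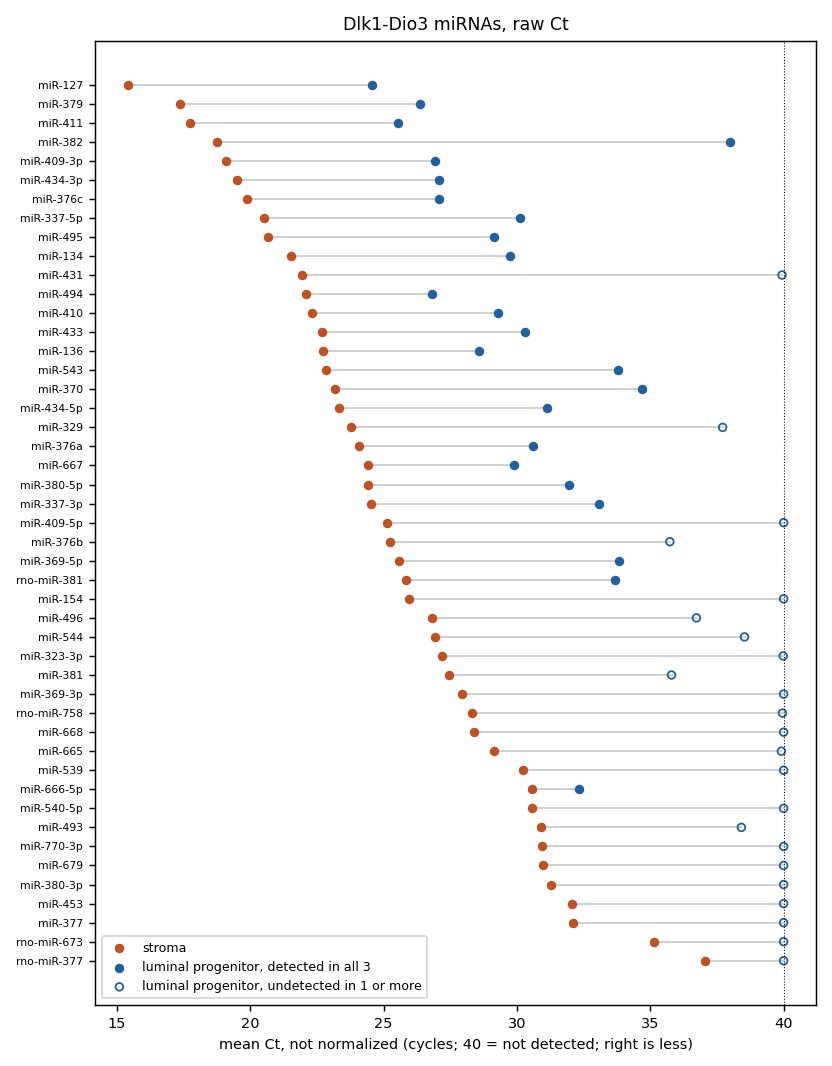
Mean raw Ct (x axis, cycles, not normalized) of the 47 Dlk1-Dio3 miRNAs in stroma (orange, 4 samples) and LP (blue, 3 samples; open where at least 1 LP sample had no signal). Each stromal point lies left of its LP point, the side of more RNA, and miR-666-5p, with 30.6 against 32.3 cycles, has a short line.

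Of the miRNA groups examined, the imprinted Dlk1-Dio3 region was the largest. It had 51 probes on plate A, 47 of them members, and 46 of the 47 were called higher in stroma and none lower, against 42.9% of all members called higher. The median difference was 6.78, against -0.05 over all members. Between 44 and 46 members were higher under each of the 6 scalings, with medians from 6.53 to 8.84, and 42 were called with the stromal samples averaged to 1. Group members share 1 transcribed region, and 4 are rat-named assays, so they are not independent of each other.

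The assay of the region with the lowest Ct in stroma was that of miR-127, which lies antisense to Rtl1, at a mean Ct of 15.4 in stroma and 24.6 in LP. Its normalized values were 16.11, 16.50 and 16.89 in LP and 24.49, 24.70, 24.42 and 24.31 in stroma (7.98, SE 0.21, adjusted p = 1.4e-11). miR-379, at the start of the second block of the region, was at 14.80, 14.47 and 15.20 against 22.18, 22.73, 22.35 and 22.14 (7.53, SE 0.21). miR-411 differed by 6.34 (SE 0.18), miR-409-3p by 6.08 (SE 0.35) and miR-337-5p by 6.93 (SE 0.20). These miRNAs had a signal in every LP sample, and no LP value reached a stromal value.

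For others LP was at the limit of detection. miR-382 differed by 15.88 (SE 0.78), from LP values of 3.24, 3.34 and 4.89, at a mean Ct of 38.0, to stromal values of 19.93, 20.03, 19.16 and 19.70. miR-431 gave a signal in 1 of 3 LP samples, with a mean Ct of 39.9, and stood at 15.87, 16.95, 17.06 and 16.88 in stroma (15.37, SE 1.18). Without any signal in LP, miR-409-5p was at least 13.01 higher in stroma (13.86, 14.09, 14.22 and 14.12), miR-154 at least 12.26, miR-369-3p at least 10.46 and miR-668 at least 10.10. Of the 47 members, 24 were detected in all 7 samples, with a median difference of 5.05, 10 in 1 or 2 LP samples and 13 in none. Of the 24, 23 were called higher and none lower under each of the 6 scalings. The other 23 could become members through their stromal values, so the counts and medians over all 47 are descriptions.

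Among the other members miR-667 differed by 2.08 (SE 0.50), miR-494 by 2.32 (SE 0.48), miR-136 by 3.15 (SE 0.21), miR-543 by 7.19 (SE 0.41) and miR-370 by 8.03 (SE 1.48). miR-544 was detected in 1 LP sample and differed by 9.24 (SE 0.97). Scaling changed the sizes of the weaker signals: miR-667 was 5.79 and miR-543 11.25 against U6, and miR-667 lost its call when the stromal samples were averaged to 1. The single member not called, miR-666-5p, was at 8.47, 7.84 and 10.59 in LP and 7.88, 9.02, 8.65 and 8.56 in stroma (-0.44, SE 0.89, adjusted p = 0.66). Of the 4 probes of the region that were not members, none gave a signal in LP and 2 gave one in 2 stromal samples each.

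**Figure D4:**
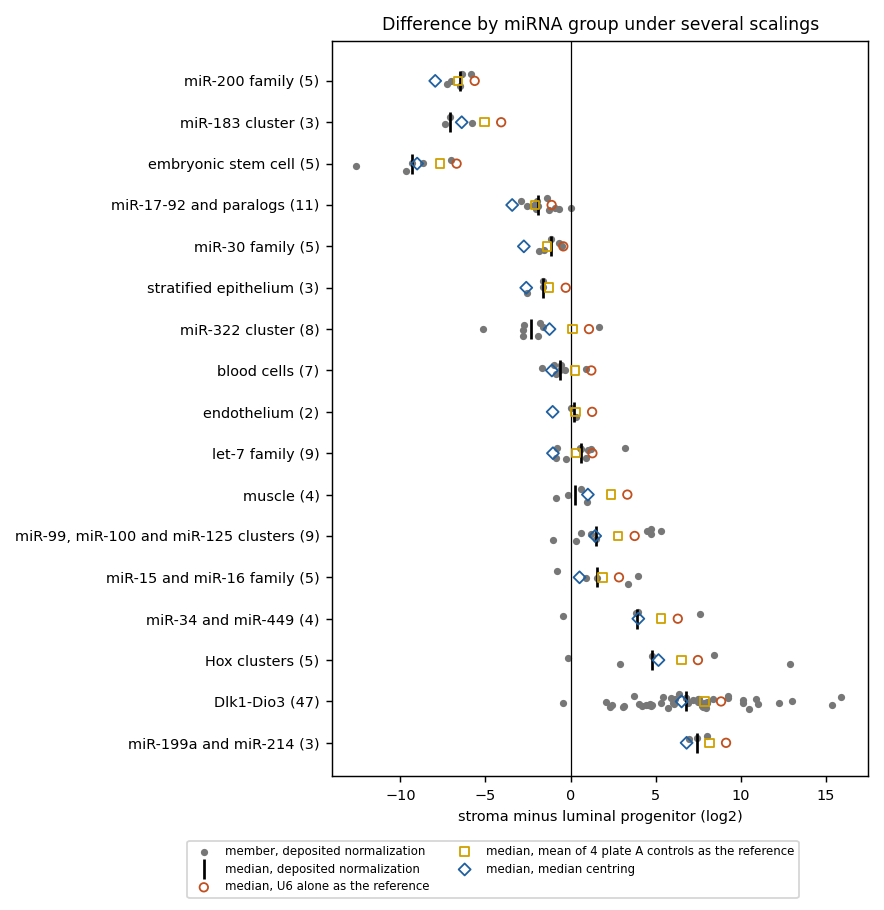
Stroma minus LP (log2, x axis) for the members of 17 miRNA groups (grey points; number of members in brackets), with the group median under the deposited normalization (black bar) and against U6 (circle), the 4 controls (square) or after median centring (diamond). The miR-200, miR-183 and embryonic stem cell medians stay below 0 and the Dlk1-Dio3, Hox and miR-199a/214 medians above it under each scaling, while those of the miR-322, blood cell, endothelial and let-7 groups cross 0.

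Members of 1 seed family could differ from each other. Among the 194 members with a matched sequence, 25 seed groups had at least 2 members and held 73 miRNAs. Members without a matched sequence, such as miR-195, miR-497 and miR-34c, were not grouped. Of the 25 groups, 6 contained calls in opposite directions, 3 were called higher throughout and 5 lower throughout. The 6 were the seeds of miR-125, miR-15 and miR-16 (with miR-322), miR-130 and miR-301, miR-148 and miR-152, miR-181, and the seed shared by miR-329 and miR-362-3p. These opposite calls depended on the scaling: none of the 6 groups held them against U6, against the 4 controls or with no normalization, and 3 did after median centring. Other seed groups then held opposite calls, 3 of them against U6. miR-125b-5p was at 21.30, 21.56 and 21.48 in LP and 26.84, 26.59, 26.67 and 26.85 in stroma (5.29, SE 0.20, adjusted p = 4.3e-10). With the same seed, miR-125a-5p was at 22.44, 22.39 and 22.80 against 21.55, 21.25, 21.56 and 21.64 (-1.04, SE 0.24), and miR-351 differed by -2.73 (SE 0.58). In raw Ct the miR-125b-5p assay came up 4.94 ± 0.0698 cycles before the miR-125a-5p assay in stroma (SD, n = 4) while in LP this gap was -0.936 ± 0.258 cycles (n = 3), a change of 5.88 cycles. Against U6 miR-125a-5p was not called (-0.0042).

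miR-99a and miR-100, encoded beside the miR-125b genes, differed by 4.75 (SE 0.24) and 4.50 (SE 0.22), while miR-99b, beside miR-125a, was at 20.07, 20.10 and 20.37 in LP and 20.77, 20.55, 20.12 and 20.47 in stroma (0.30, SE 0.23, adjusted p = 0.25). The raw gap between miR-99a and miR-99b changed by 4.02 cycles, with no overlap between the groups. Assays for miRNAs that differ by a few bases, such as miR-99a and miR-100, can read each other's RNA, and their cross-reaction was not tested.

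The seed partners miR-10b and miR-10a changed in raw gap by 3.44 cycles between LP and stroma. miR-146b was called lower at -3.62, from 27.92, 27.51 and 28.07 in LP to 24.10, 24.33, 24.28 and 24.12 in stroma, while miR-146a, which shares its seed and responds to NF-kB, was at 19.60, 19.09 and 20.21 against 20.82, 20.43, 20.80 and 20.15 (0.92, SE 0.42, adjusted p = 0.063). Their raw gap changed by 5.71 cycles. miR-32, with the seed of miR-25 and miR-92a, was called lower at -6.33 (SE 0.27; -1.99 against U6), and the raw gap between miR-25 and miR-32 changed by 3.49 cycles.

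miR-34c and miR-34b-3p, made from 1 locus, differed by 7.61 (SE 0.35) and 3.99 (SE 0.20). miR-34a, a p53 target from another chromosome, was at 19.83, 19.74 and 19.64 in LP and 19.41, 19.06, 19.31 and 19.29 in stroma (-0.47, SE 0.25, adjusted p = 0.1). Against U6 miR-34a was called higher (1.22), and after median centring it was called lower (-1.10). The raw gap between miR-34c and miR-34a changed by 10.1 cycles. miR-195 and miR-497, another cluster, were at 3.94 (SE 0.28) and 3.37 (SE 0.15). miR-221 differed by 2.00 (SE 0.21) and miR-222 by 1.21 (SE 0.25), and let-7i by 3.18 (SE 0.19). miR-23a differed by 7.83 (SE 1.36), but its LP values of 6.84, 8.48 and 3.23 were scattered.

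In the X-linked miR-322 cluster, whose miRNAs restrain the cell cycle, miR-322 was higher in stroma at 1.67 (SE 0.29) while miR-503 was lower at -1.79 (SE 0.37) and miR-542-5p at -5.14 (SE 0.28). Of its 8 members 1 was called higher and 7 lower, but against U6 it was 3 and 1 with a median of 1.08 in place of -2.32, so the direction of the group depends on the scaling. The raw gap between miR-322 and miR-503 changed by 2.21 cycles.

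Of 24 precursors with both arms among the members, 19 had the same call for both, counting miR-126, where neither arm was called. Over all members, 42.9% were called higher and 34.8% lower. In 1 the calls were opposite: miR-125a-5p was lower at -1.04 while miR-125a-3p was at 16.10, 16.03 and 16.21 in LP and 17.71, 17.77, 17.21 and 17.84 in stroma (1.52, SE 0.17), a change in raw gap of 3.77 cycles. The opposite calls depended on the scaling, because miR-125a-5p was not called against U6, against the 4 controls or with no normalization. The arms of miR-125b differed by 5.29 and 4.70 (SE 0.86 for the 3p arm), and those of miR-409 by at least 13.01 and 6.08.

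Markers of other cell types that the gates could hold were read beside these results. All 7 blood cell members were detected in every LP and stromal sample, 2 were called lower in stroma and none higher, and their median was -0.60. Against U6, 5 of the 7 were called higher and none lower (median 1.22), and after median centring 4 were lower. miR-142-3p, made in blood cells, was at 16.89, 16.76 and 15.68 in LP and 15.27, 14.17, 15.50 and 14.14 in stroma (-1.68, SE 0.43), but its sign turned against U6 (1.03), the 4 controls (0.06) and with no normalization (0.73). miR-223, of myeloid cells, was -0.60 (SE 0.28, adjusted p = 0.072). The summed blood cell level lay between 21.63 and 22.11 in LP and between 21.26 and 21.99 in stroma. Endothelial miR-126-3p was at 23.37, 23.07 and 23.39 against 23.34, 22.89, 23.75 and 23.32 (0.05, SE 0.22), and neither of the 2 endothelial members was called. Against U6 both were called higher (median 1.27). The part of these cells in either gate was not tested.

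Of 4 muscle members, 1 (the rat-named miR-1 assay, 0.95, SE 0.37) was called higher in stroma and 3 were not called with the deposited normalization. miR-133a was at 15.98, 15.98 and 16.48 in LP and 15.91, 16.24, 15.78 and 16.15 in stroma (-0.13, SE 0.26), and miR-133b (-0.88, SE 0.38) and miR-1 (0.64, SE 0.34) were not called either. Against U6 all 4 members of the group were called higher in stroma, with a median of 3.34 in place of 0.26. In MaSC/basal cells miR-133a had a mean level of 23.3 and miR-1 of 19.2, above both.

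LP also differed from the other epithelial cells. In these contrasts stroma was not among the means compared, but it entered the estimate of the spread, the normalization and the filter. Of the 287 members, 35 were called between LP and ML and between LP and MaSC/basal cells in the same direction, 12 higher and 23 lower in LP, or 12.2% against 9.80% of all probes tested. The comparisons share the LP samples. Of the 35, 9 were so called under all 6 scalings, each of them lower in LP: miR-98, miR-598, miR-489, miR-382, miR-544, miR-133a, miR-133b and miR-1 with a mouse and a rat assay. With the fourth MaSC/basal sample in the fit 11 of the members set LP apart, miR-98, miR-598 and miR-489 among them. There miR-382, miR-544, miR-133a, miR-133b and both miR-1 assays lost their place. In LP, miR-98, miR-598, miR-489, miR-382 and miR-544 were at or near the limit of detection.

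miR-98, a let-7 family member, was at 2.04, 4.53 and 0.83 in LP, with no signal in 1 sample, against 14.99, 13.86 and 14.58 in ML and 9.93, 9.88 and 14.74 in MaSC/basal cells (LP minus ML -12.01, SE 1.47, adjusted p = 0.00039). In stroma it was as low as in LP, at 3.93, 0.57, 2.30 and -0.22. miR-598 gave a signal in 1 LP sample (3.57) and stood at 10.35, 10.74 and 9.93 in ML, 9.37, 10.20 and 9.90 in MaSC/basal cells and 9.23, 8.87, 9.49 and 8.80 in stroma, so LP was low against each of the other populations (7.25, SE 0.56, for stroma minus LP). miR-489, encoded within Calcr, had no signal in LP and levels of 5.20 to 7.08 in ML, 5.93 to 10.99 in MaSC/basal cells and 8.97 to 10.20 in stroma. miR-382 was at 7.44, 7.95 and 9.24 in ML, between LP and stroma. miR-135a, lower in LP than in ML by a difference of -5.11 (SE 1.45) and than in MaSC/basal cells by -9.63 (SE 1.45), varied between 1.30 and 8.09 in LP and was not called against stroma (2.34, SE 1.36).

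Of the 12 miRNAs higher in LP than in both other epithelial populations, 10 were also called lower in stroma, against 34.8% of all members. The 12 were picked for high LP values and the same LP samples enter the stroma contrast, so the count is a description. miR-292-3p was at 12.05, 13.10 and 12.76 in ML and 9.77, 10.62 and 8.07 in MaSC/basal cells (LP minus ML 3.46, SE 0.71, adjusted p = 0.0062; LP minus MaSC/basal 6.61, SE 0.71). miR-542-5p differed by 0.95 (SE 0.30) and 4.82 (SE 0.30), and miR-450a-5p, from the same X-linked cluster, by 1.20 (SE 0.21) and 3.76 (SE 0.21). miR-197 was above ML by 2.47 (SE 0.49) and above MaSC/basal cells by 2.60 (SE 0.49). miR-148a, known as a milk miRNA, was at 22.37, 22.08 and 21.87 in LP, above ML (1.11, SE 0.20) and MaSC/basal cells (4.13, SE 0.20), but stroma overlapped it at 22.39, 22.24, 22.17 and 22.02 (0.10, SE 0.19, adjusted p = 0.65). None of the 12 kept its place under all 6 scalings: miR-292-3p did under 4, miR-542-5p under 2 and miR-148a under 3. Of the miRNAs named here, miR-542-5p lost its place without MaSC 1, ML 1, ML 2, Str 1 or any 1 LP sample, and miR-135a without any 1 ML sample, LP 2 or LP 3.

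**Figure D5:**
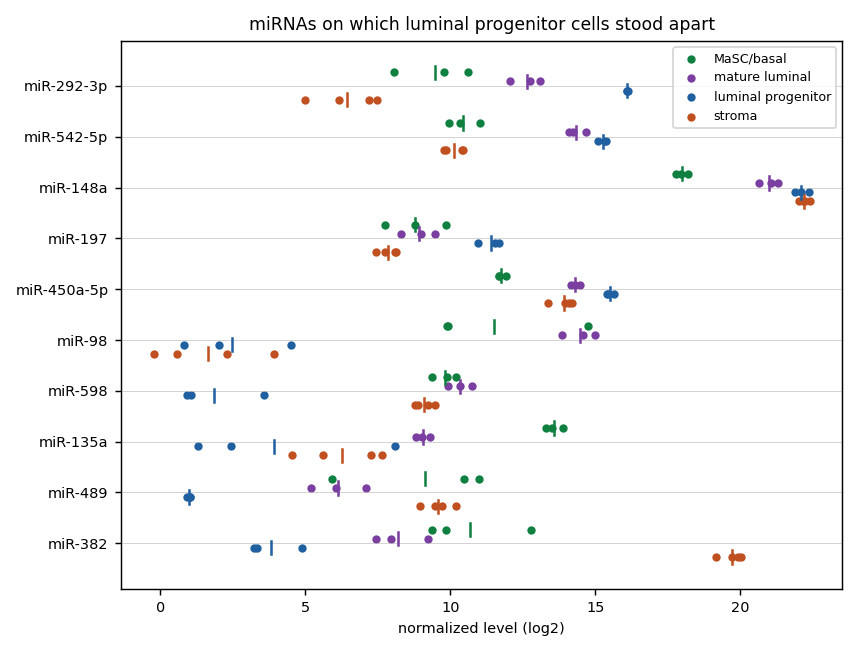
Normalized level (log2, x axis) of 10 miRNAs in MaSC/basal (green, 3 samples), mature luminal (purple, 3), luminal progenitor (blue, 3) and stromal (orange, 4) samples, with a bar at each mean. LP is rightmost of the epithelial groups in the upper 5 rows and leftmost in the lower 5, with stroma beside LP for miR-148a and miR-98 and far above it for miR-382.

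The 64 members not called included some with a small SE on the deposited values. In 39 the SE was under 0.5, and in 50 the difference was smaller than 1 log2 unit. miR-25, miR-140, miR-148a and miR-126-3p, described above, are among them. A difference that missed the threshold does not show equal levels.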

How the data were processed

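The authors ran TaqMan rodent low density arrays and deposited the Ct value of each assay (40 for no signal) and log2 values made from them as a constant minus Ct, followed by cyclic loess over 14 samples and both plates with a weight of 100 on U6. Running that loess again on the deposited Ct values gave the deposited log2 values. The deposited table of the authors' own fold changes was not used. The log2 values of 459 probes with 2 or more in at least 3 of the 13 samples were fitted with limma 3.58.1 (R 4.3.3, lmFit and eBayes) on 4 group means, without the fourth MaSC/basal sample, which came from a pool of its own. Calls used a Benjamini-Hochberg adjusted p under 0.05.

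Named miRNAs were the 10 largest called differences in each direction among those detected in all 7 samples without overlap, the 5 largest bounds, the 5 that most set LP apart in each direction, and members of fixed lists. miR-210, miR-21 and miR-146b were chosen after their values were seen. The members and lists were chosen with earlier results of these data known.

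Replicate numbers did not pair stroma with LP: residuals of samples with the same number correlated between -0.05 and 0.04. LP, ML and MaSC/basal samples of 1 number came from the same mouse pool (correlations of 0.08 to 0.43). Scripts were tested on simulated data. Alternatives covered scaling, filter, floor, moderation, mouse pool, replicate block and leaving out each sample. PCR has no sequencing depth, and precision rests on 3 LP and 4 stromal samples.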

Additional observations from a re-analysis of the deposited data

Results flagged for a closer look

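In 5 of 98 miRNAs examined, 1 stromal sample lay far from the other 3 by Dixon's criterion, which chance meets in about 1 of 20 groups. miR-200c was at 19.28 in Str 2 and at 20.13 to 20.19 in the others, and miR-210 was at 16.80 in Str 2 against 17.04 to 17.08. miR-431 was at 15.87 in Str 1 against 16.88 to 17.06, and miR-10b at 20.86 in Str 4 against 20.57 to 20.59. miR-291a-3p gave a signal in Str 3 alone, at 4.03, with -0.05 to -0.00 in the samples without signal. On plate B, which the comparison left out, 71 miRNA probes were detected in all 4 stromal samples and in no LP sample. On that plate 2 control RNAs also had no signal in LP, so failed reactions and absent miRNAs cannot be told apart there.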

How the results depend on the processing

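The number of called miRNAs (223) stayed between 175 and 274 under every alternative. The 274 came with no filter on low values, where all 375 plate A probes were counted in place of the 287 members. Of these probes, 59 had no signal in any of the 7 samples. Leaving out 1 sample at a time gave 208 to 234 called, 112 to 125 higher, 96 to 109 lower and 24 to 44 miRNAs that set LP apart. The count higher in stroma was 185 against U6. The count lower was 35 against U6, 54 against 4 controls, 34 with no normalization and 153 of the 375 probes with no filter on low values. The count that set LP apart was 11 with all 14 samples, 69 against 4 controls and 16 with no normalization. Among named miRNAs called on the deposited values or under the alternative, the sign turned for these, while sign turns without a call on either side are not listed. Against U6, miR-10a was 1.12, miR-133a 2.09, miR-133b 2.93, miR-140 0.99, miR-142-3p 1.03, miR-223 1.19, miR-34a 1.22, miR-351 0.57, miR-362-3p 1.96, miR-365 0.23, miR-450a-5p 1.72 and miR-503 0.95. Against 4 controls, miR-133a was 1.12, miR-133b 1.96, miR-142-3p 0.059, miR-362-3p 0.99 and miR-450a-5p 0.75. With no normalization, miR-133a was 1.79, miR-133b 2.63, miR-142-3p 0.73, miR-351 0.27, miR-362-3p 1.66, miR-450a-5p 1.42 and miR-503 0.65. After median centring, miR-126-3p was -1.56, miR-148a -1.04, miR-222 -0.62, miR-25 -0.82 and miR-99b -0.62. Calls between stroma and LP were lost, with the direction kept, for miR-125a-5p, miR-197, miR-203, miR-205 and miR-184 against U6 and with no normalization. With no normalization miR-365 and miR-542-5p also lost theirs. Against 4 controls miR-125a-5p, miR-222, miR-351, miR-365 and miR-503 lost theirs. After median centring miR-143, miR-362-3p and miR-450a-5p did, and with cyclic loess on plate A alone miR-362-3p did. With all 14 samples calls were lost for miR-143, miR-145, miR-125b-3p, miR-184, miR-222, miR-351, miR-362-3p, miR-365 and miR-503. No named call was lost when 1 sample was left out. The cause was not tested. With a replicate block, 218 miRNAs were called, 118 higher and 100 lower, and 36 set LP apart. Differences near a Ct of 40 are the least reliable.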
